A study of Mus musculus with 4 samples.

Results

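The genes described here encode collagens, the enzymes that modify collagen, laminins, adhesive and elastic-fibre glycoproteins, integrins, matrix metalloproteinases with their ADAM and ADAMTS relatives, the inhibitor Timp2, and serpins. They were chosen by symbol alone among the protein-coding genes that the authors deposited, which gave 51 genes of the 4295 listed. A gene was listed only if its p-value in the authors' own comparison was below 0.05, so each of the 51 had already been selected on the contrast described here, and tests of that contrast are given as descriptions of size and error. GENCODE release M21 annotates 261 protein-coding mouse genes with such symbols, and the ones outside the 51 were not analysed here.

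The cells were CT26, a transplantable colon carcinoma line of BALB/c origin with the label WT for genotype, grown as a pure culture with no stroma or immune cells. The 2 groups were riluzole, 25 µM for 24 h, and control, the solvent DMSO for 24 h, with 2 libraries of polyA RNA in each. Riluzole, given to patients with amyotrophic lateral sclerosis, lowers glutamate release, and the title of the series links it to cGAS-STING signalling and to PD-1 blockade. The labels do not say that the 2 libraries of a group came from separate cultures, and p-values therefore reflect the spread of these libraries alone, which may be technical.

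Listed genes held 10393602 and 9191717 counts in the riluzole libraries and 9898486 and 12989475 in the control libraries. Within a group the libraries differed by more than counting noise, the chi-square per gene being 3.33 for riluzole and 3.62 for the controls. Of 9 markers of colon epithelium, 3 were listed, all keratins that rose. Krt20 had 831 and 824 normalised counts with riluzole and 508 and 466 in the controls, and Krt18 764 and 715 against 529 and 509. Krt8, a keratin of simple epithelia, was scarce at 15.5 and 17.7 normalised counts with riluzole and 4.39 and 3.36 in the controls. Unlike Krt18 and Krt20, Krt8 does not pass in the authors' deposited table at an adjusted p below 0.05. Vim, the mesenchymal intermediate filament gene, had 51912 and 53272 normalised counts with riluzole, against 33588 and 31645 in the controls. The 3 epithelial markers summed to 1611 and 1557 normalised counts with riluzole and 1041 and 978 in the controls. Of 9 fibroblast markers, 4 were listed, with sums of 75484 and 76049 against 60880 and 56707, but only Vim rose, and Pdgfrb, Col1a1 and Col1a2 fell. Vim makes up most of that sum, and Col1a1 and Col1a2 are among the 51 genes. Of 6 macrophage and leukocyte markers, Cd68 and Cd14 were listed, with sums of 760 and 836 against 537 and 547, and none of the 4 endothelial markers was listed. No listed marker was at 0 in every library, which the listing by p ensures. The part of these shifts in the results was not tested. In bulk RNA, fewer cells expressing a gene and less RNA per cell cannot be told apart.

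The extracellular matrix is a network of collagens, laminins and glycoproteins that cells secrete, cross-link and cut. Integrins, heterodimers of an alpha and a beta subunit, bind it and anchor it to the actin cytoskeleton. Metalloproteinases degrade or shed matrix and cell-surface proteins, TIMPs and many serpins inhibit proteases, and latent TGF-beta binding proteins hold the growth factor TGF-beta in the matrix. In colon carcinoma these genes are known for their part in invasion and in the fibrous reaction around a tumour.

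Each of these gene families held genes that rose and genes that fell with riluzole. By quasi-likelihood testing in edgeR, adjusted after Benjamini and Hochberg, 28 of the 51 genes rose, 22 fell and 1, Serpinb6a, was not called at an adjusted p below 0.05. Over all listed genes 41.3% were called higher, 58.2% lower and 99.5% either way, so the share called reflects the listing. Unlisted genes could not be tested in edgeR. As shares of the 12601 genes in the authors' adjustment, which include unlisted ones, edgeR calls were 13.6% higher, 19.7% lower and 33.3% either way. Of the 51 genes, 43 (26 higher and 17 lower) pass in the authors' deposited table at an adjusted p below 0.05, against 28.3% higher, 44.7% lower and 72.9% either way over all listed genes. Over the 12601 genes these shares were 9.63%, 15.2% and 24.9%. Among calls 56.0% were higher for the 51 genes and 41.5% for all listed genes. With DESeq2 size factors computed on the listed genes, which raised every log2 fold change by 0.17, these shares were 65.1% and 63.1%. With TMM factors on the listed genes they were 60.9% and 51.8%, and with library totals implied by FPKM 54.9% and 40.9%. The median log2 fold change was 0.19 over the 51 genes and -0.19 over all listed genes. The 2 riluzole libraries lay on 1 side of both controls for all 51 genes, as they did for 99.9% of listed genes.

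Changes were mostly modest. The median absolute log2 fold change was 0.39, against 0.35 over all listed genes, and 5 of the 51 genes changed at least 2-fold in the fit. They were Serpinb8, Itgb4 and Thbs3, which rose, and Tnc and the barely detected Col10a1, which fell. The most abundant genes of the set by FPKM, a count per gene length and library total, were the collagen chaperone Serpinh1 with a mean of 272 over the 4 libraries, the integrin subunit Itgb1 with 232 and Itgb7 with 135. All 3 fell. Genes called higher had a median level of 7.85 FPKM and genes called lower one of 23.1 FPKM, and the same order held over all listed genes, at 8.15 and 18.6 FPKM.

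**Figure D1:**
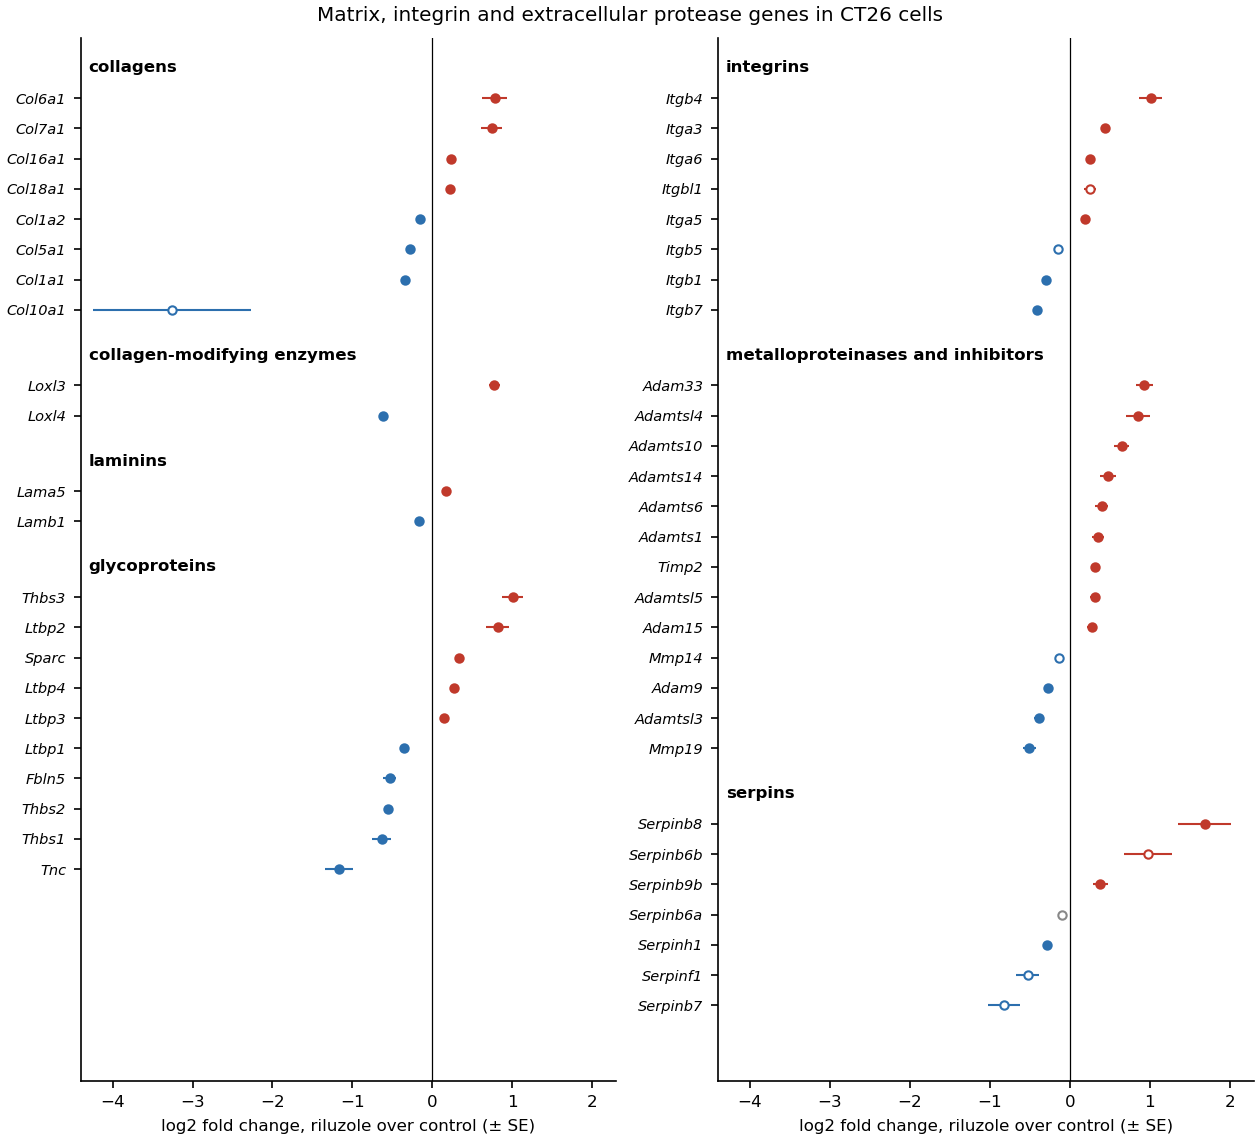
Log2 fold change (x axis, riluzole over control, bars are the SE of the edgeR fit) of 50 of the 51 genes, grouped by role; red genes were called higher, blue lower and grey not called, and open circles mark genes with an adjusted p of at least 0.05 in the authors' deposited table. Every role except the collagen cross-linkers and laminins, which have few genes, holds at least 3 genes on each side of 0, and the small negative values of Col1a2, Lamb1, Itgb5, Mmp14 and Serpinb6a turn positive with DESeq2 size factors computed on listed genes, that of Serpinb6a also with TMM.

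Promoter sequences from RefSeq on build GRCm38.p6, which reach from 250 bases before to 50 after a start site, were matched by symbol for 40 of the 51 genes, in 48 windows. The windows below are a selection, and are printed 5′ to 3′ on the gene's strand. Capitals mark matches on either strand to AP-1 (TGANTCA), TEAD (GGAATG), a SMAD box (CAGACA) or the interferon-stimulated element. Each printed window holds a match, whereas only 19 of the 40 genes have one in any window. Loxl4, Timp2 and Thbs3 are among those with none. Tnc, Thbs2, Col1a2, Serpinh1 and Itgb1 fell, and Serpinb7 and Serpinb8, both on chromosome 1, went opposite ways. Their windows are chr4:64046966-64047265 (minus strand), chr17:14694213-14694512 (minus), chr6:4505368-4505667 (plus), chr7:99353190-99353489 (minus), chr8:128685404-128685703 (plus), chr1:107422439-107422738 (plus) and chr1:107589756-107590055 (plus), in that order. CT26 carries BALB/c alleles, which can differ from this C57BL/6J reference.
Tnc: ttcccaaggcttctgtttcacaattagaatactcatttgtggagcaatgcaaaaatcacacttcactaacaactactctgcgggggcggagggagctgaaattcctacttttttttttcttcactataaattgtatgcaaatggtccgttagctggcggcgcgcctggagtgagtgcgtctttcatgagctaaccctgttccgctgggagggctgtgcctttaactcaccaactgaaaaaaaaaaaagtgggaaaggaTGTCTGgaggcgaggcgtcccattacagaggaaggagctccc
Thbs2: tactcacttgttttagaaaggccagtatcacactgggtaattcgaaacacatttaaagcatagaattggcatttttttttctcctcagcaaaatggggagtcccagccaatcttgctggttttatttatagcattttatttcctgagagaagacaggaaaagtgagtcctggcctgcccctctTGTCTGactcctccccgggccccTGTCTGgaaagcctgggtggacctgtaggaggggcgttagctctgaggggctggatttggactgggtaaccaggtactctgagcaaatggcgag
Col1a2: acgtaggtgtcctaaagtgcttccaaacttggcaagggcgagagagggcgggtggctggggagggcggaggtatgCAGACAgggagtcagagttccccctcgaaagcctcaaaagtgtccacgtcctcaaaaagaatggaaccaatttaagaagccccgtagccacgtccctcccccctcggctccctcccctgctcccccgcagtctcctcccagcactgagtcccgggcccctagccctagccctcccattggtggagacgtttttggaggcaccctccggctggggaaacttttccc
Serpinh1: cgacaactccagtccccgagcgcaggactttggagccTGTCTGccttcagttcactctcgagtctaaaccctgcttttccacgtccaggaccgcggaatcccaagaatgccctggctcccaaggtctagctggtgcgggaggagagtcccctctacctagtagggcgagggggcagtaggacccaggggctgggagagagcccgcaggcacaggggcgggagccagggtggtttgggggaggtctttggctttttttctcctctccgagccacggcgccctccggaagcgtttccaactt
Itgb1: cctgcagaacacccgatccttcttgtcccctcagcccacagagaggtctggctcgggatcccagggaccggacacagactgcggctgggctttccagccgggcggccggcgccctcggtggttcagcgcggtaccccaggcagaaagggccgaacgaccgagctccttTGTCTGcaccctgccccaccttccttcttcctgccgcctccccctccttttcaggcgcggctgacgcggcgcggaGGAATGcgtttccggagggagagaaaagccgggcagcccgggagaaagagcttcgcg
Serpinb7: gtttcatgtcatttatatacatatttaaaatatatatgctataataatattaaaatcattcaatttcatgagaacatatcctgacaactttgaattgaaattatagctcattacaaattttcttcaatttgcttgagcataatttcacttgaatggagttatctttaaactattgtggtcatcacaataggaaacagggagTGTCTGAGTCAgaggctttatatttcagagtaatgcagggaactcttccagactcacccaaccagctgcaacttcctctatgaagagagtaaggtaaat
Serpinb8: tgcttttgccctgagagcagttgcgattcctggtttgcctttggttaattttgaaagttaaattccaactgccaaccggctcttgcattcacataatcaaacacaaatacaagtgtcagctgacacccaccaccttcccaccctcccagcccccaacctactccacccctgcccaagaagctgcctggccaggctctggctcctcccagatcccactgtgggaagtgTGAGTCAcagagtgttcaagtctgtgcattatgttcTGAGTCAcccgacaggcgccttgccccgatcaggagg

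The SMAD box, the letters that SMAD proteins downstream of TGF-beta recognise, was found in at least 1 window of 10 of the 17 genes called lower, 58.8%, and of 6 of the 22 called higher, 27.3%. It was found in 23.6% of the 27025 genes with a window. Those called lower were Tnc, Thbs2, Fbln5, Ltbp1, Col1a2, Col5a1, Serpinh1, Serpinf1, Serpinb7 and Itgb1. Of these, Col1a2, Col5a1 and Serpinf1 were not called with DESeq2 factors. Serpinb7 and Serpinf1 do not pass in the authors' deposited table. The share among all listed genes called lower was not computed, so it is not known whether the contrast is particular to this set. The letters are rarer where GC content is high, being in 13.3% of all windows with at least 58.7% GC and in 25.2% of those with at most 48.3%. Among windows with at least 58.7% GC, 4 of 10 windows of genes called lower and 4 of 18 of genes called higher held them. The median GC content was 57.5% in windows of genes called lower and 62.2% in those of genes called higher. AP-1 letters, which overlap the SMAD box in Serpinb7 and in Ltbp3, occurred in 4 genes called higher (Col6a1, Itga3, Ltbp3 and Serpinb8) and 1 called lower (Serpinb7), against 8.97% of all genes. TEAD letters were found in 3 of the 40 genes, 7.50%, against 16.6% of all genes, and interferon-stimulated element letters in 3, against 3.99%. A match describes letters in a window and no binding was measured.

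The listed chains of fibrillar collagens I and V fell, though Col1a2 not with TMM or DESeq2 factors and Col5a1 not with DESeq2 factors, and 4 other collagens rose. Of 8 listed collagen genes 4 rose and 4 fell. Col1a2, which encodes the alpha 2 chain of type I collagen, the main fibril of connective tissue, was the most abundant at 96.5 FPKM with riluzole and 110 FPKM in the controls. It had 21442 and 20801 normalised counts with riluzole, against 24585 and 22541 in the controls (log2 fold change -0.16 ± 0.04, SE; edgeR adjusted p = 0.00504). The nearest libraries of the 2 groups lay closer together than the 2 controls did. Col1a1, the alpha 1 chain, had 1493 and 1348 normalised counts with riluzole and 1943 and 1667 in the controls (-0.34 ± 0.06; edgeR adjusted p = 4.67e-05). Col5a1, a chain of the type V collagen that is built into type I fibrils and limits their width, had 3789 and 3493 with riluzole and 4591 and 4240 in the controls (-0.28 ± 0.05; edgeR adjusted p = 1.91e-05). Both riluzole libraries were below both controls for each of these 3 genes.

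Among the rising collagens, Col6a1 and Col7a1 changed most and were scarce. Col6a1, a chain of the beaded-filament collagen VI around cells, had 201 and 178 normalised counts with riluzole and 101 and 119 in the controls, a 1.73-fold rise (log2 fold change 0.78 ± 0.15; edgeR adjusted p = 0.000122). Col7a1, which forms the fibrils that anchor epithelial basement membranes, had 250 and 226 with riluzole and 140 and 145 in the controls, a 1.67-fold rise (0.74 ± 0.13; edgeR adjusted p = 4.78e-05). Both stood at under 3 FPKM in either group. Col16a1, a fibril-associated collagen, had 1945 and 2000 normalised counts with riluzole and 1800 and 1569 in the controls, and Col18a1, the basement membrane collagen from which endostatin is cut, had 1734 and 1786 against 1464 and 1541. Both of these rises were small, at 0.23 on the log2 scale. Col10a1, the collagen of hypertrophic cartilage, had 2 and 0 raw counts with riluzole and 9 and 14 in the controls, a ratio of 0.0943 with an exact 95% interval of 0.0108 to 0.382 that covers counting error only.

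The collagen calls differ in how firmly they held. Col1a2 was not called with TMM or DESeq2 factors (log2 fold change -0.06 and 0.0082), nor when control replicate 1 or riluzole replicate 2 was left out (edgeR adjusted p = 0.341 and 0.0808). Col5a1 was not called with DESeq2 factors (-0.11), and Col16a1 not without control replicate 2 (edgeR adjusted p = 0.135). Col10a1 has an adjusted p of 1 in the authors' deposited table and was not called in edgeR without riluzole replicate 2 or control replicate 2 (adjusted p = 0.0602 and 0.0531), and Col5a1 overlaps exons of 2 non-coding transcripts on the other strand.

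Collagen-modifying enzymes went opposite ways. Loxl3 and Loxl4 belong to the lysyl oxidase family, copper enzymes that oxidise lysines so that collagen and elastin can cross-link, and no prolyl or lysyl hydroxylase of the P4ha and Plod families was listed. Loxl3 had 932 and 906 normalised counts with riluzole and 541 and 534 in the controls, a 1.71-fold rise (log2 fold change 0.78 ± 0.07; edgeR adjusted p = 8.17e-10). Loxl4 had 2239 and 2149 with riluzole and 3473 and 3243 in the controls (-0.61 ± 0.05; edgeR adjusted p = 1.51e-11). For both genes the groups differed by more than the libraries within either group. In FPKM, Loxl3 stood at 0.381 and 0.386 of Loxl4 in the riluzole libraries, against 0.143 and 0.151 in the controls. Serpinh1, the endoplasmic reticulum chaperone of procollagen known as Hsp47, is a serpin by sequence that inhibits no protease, and it is described with the collagens for that reason. It had 10349 and 10562 normalised counts with riluzole and 12724 and 12736 in the controls (-0.28 ± 0.04; edgeR adjusted p = 1.18e-06). Loxl3 shares exonic bases with Htra2 on the other strand.

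Laminins, heterotrimers that form the basement membrane sheet, were split as well. Lama5, the alpha chain of laminin-511 and related trimers, had 15369 and 13694 normalised counts with riluzole and 13158 and 12635 in the controls (log2 fold change 0.17 ± 0.05; edgeR adjusted p = 0.00316). Lamb1, a beta chain that can join it, had 8374 and 8163 with riluzole and 9513 and 9023 in the controls (-0.16 ± 0.04; edgeR adjusted p = 0.00177). The groups did not overlap for either gene, though the nearest libraries of Lama5 lay closer together than its 2 riluzole libraries. Lama5 was not called in edgeR without riluzole replicate 1 (log2 fold change 0.09, adjusted p = 0.286) or control replicate 2 (adjusted p = 0.0567). Lamb1 was not called with TMM or DESeq2 factors (-0.07 and 0.0018) or without control replicate 1 (edgeR adjusted p = 0.0646).

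Matricellular and elastic-fibre glycoproteins gave 5 rises and 5 falls. Tnc (chromosome 4, 63878022 to 63965252, mm39), which encodes tenascin-C, a glycoprotein of remodelling and tumour matrix, had 61.0 and 79.7 normalised counts with riluzole and 153 and 161 in the controls. Its level in the riluzole group was 0.448 of that in the controls (log2 fold change -1.17 ± 0.18; edgeR adjusted p = 4e-06). Tnc was scarce, at 0.514 FPKM with riluzole and 1.17 FPKM in the controls. Thbs1, thrombospondin-1, which activates latent TGF-beta and inhibits angiogenesis, had 387 and 302 normalised counts with riluzole and 635 and 452 in the controls (-0.64 ± 0.12; edgeR adjusted p = 0.000103). Its libraries were the most scattered of the 3 thrombospondins, and the call was lost in the DESeq2 Wald test (adjusted p = 0.091). Thbs2, thrombospondin-2, also an inhibitor of angiogenesis, had 1987 and 1814 with riluzole and 2932 and 2666 in the controls (-0.55 ± 0.05; edgeR adjusted p = 1.11e-09).

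Thbs3 (chromosome 3, 89122487 to 89134144, mm39), a pentameric thrombospondin of a different subgroup from the trimeric Thbs1 and Thbs2, ran the other way. It had 302 and 263 normalised counts with riluzole and 145 and 138 in the controls, a 2.00-fold rise (log2 fold change 1.01 ± 0.13; edgeR adjusted p = 3.2e-07). Its FPKM was 0.982 and 1.10 times that of Thbs1 in the riluzole libraries and 0.287 and 0.384 times in the controls. A ratio of 2 genes within a library does not depend on how libraries are scaled, but this one had to rise, as Thbs3 rose and Thbs1 fell. Sparc, a collagen-binding matricellular protein also called osteonectin, had 3436 and 3642 normalised counts with riluzole and 2940 and 2676 in the controls (0.34 ± 0.05; edgeR adjusted p = 1.51e-06). Fbln5, fibulin-5, which helps to assemble elastic fibres and binds integrins, had 497 and 467 with riluzole and 669 and 723 in the controls (-0.53 ± 0.08; edgeR adjusted p = 4.51e-06). Exons of Tnc, Thbs1 and Thbs3 overlap another gene on the opposite strand, Mtx1 in the case of Thbs3, and the sources used here do not say whether counting used strand.

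All 4 latent TGF-beta binding protein genes were listed, and Ltbp1 fell while Ltbp2, Ltbp3 and Ltbp4 rose. Ltbp1, the most abundant of the glycoproteins by its mean over the 4 libraries though below Sparc with riluzole, stood at 48.4 FPKM with riluzole and 62.7 FPKM in the controls. It had 8975 and 9241 normalised counts with riluzole and 11753 and 11478 in the controls (log2 fold change -0.35 ± 0.04; edgeR adjusted p = 3.76e-08). Ltbp4 had 4864 and 4463 with riluzole and 3936 and 3781 in the controls (0.28 ± 0.04; edgeR adjusted p = 1.08e-05). Ltbp2, which is the member known not to bind latent TGF-beta, had 202 and 219 with riluzole and 121 and 119 in the controls (0.82 ± 0.14; edgeR adjusted p = 2.92e-05). Groups were well apart for these 3 genes, whereas those of Ltbp3 were nearer, at 6461 and 6269 with riluzole and 5936 and 5545 in the controls. Leaving out control replicate 2 or riluzole replicate 1 ended the call of Ltbp3 (edgeR adjusted p = 0.186 and 0.0726). The FPKM of Ltbp4 was 0.896 and 0.799 of that of Ltbp1 in the riluzole libraries and 0.554 and 0.545 in the controls. Ltbp2 and Ltbp3 overlap exons of genes on the other strand.

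**Figure D2:**
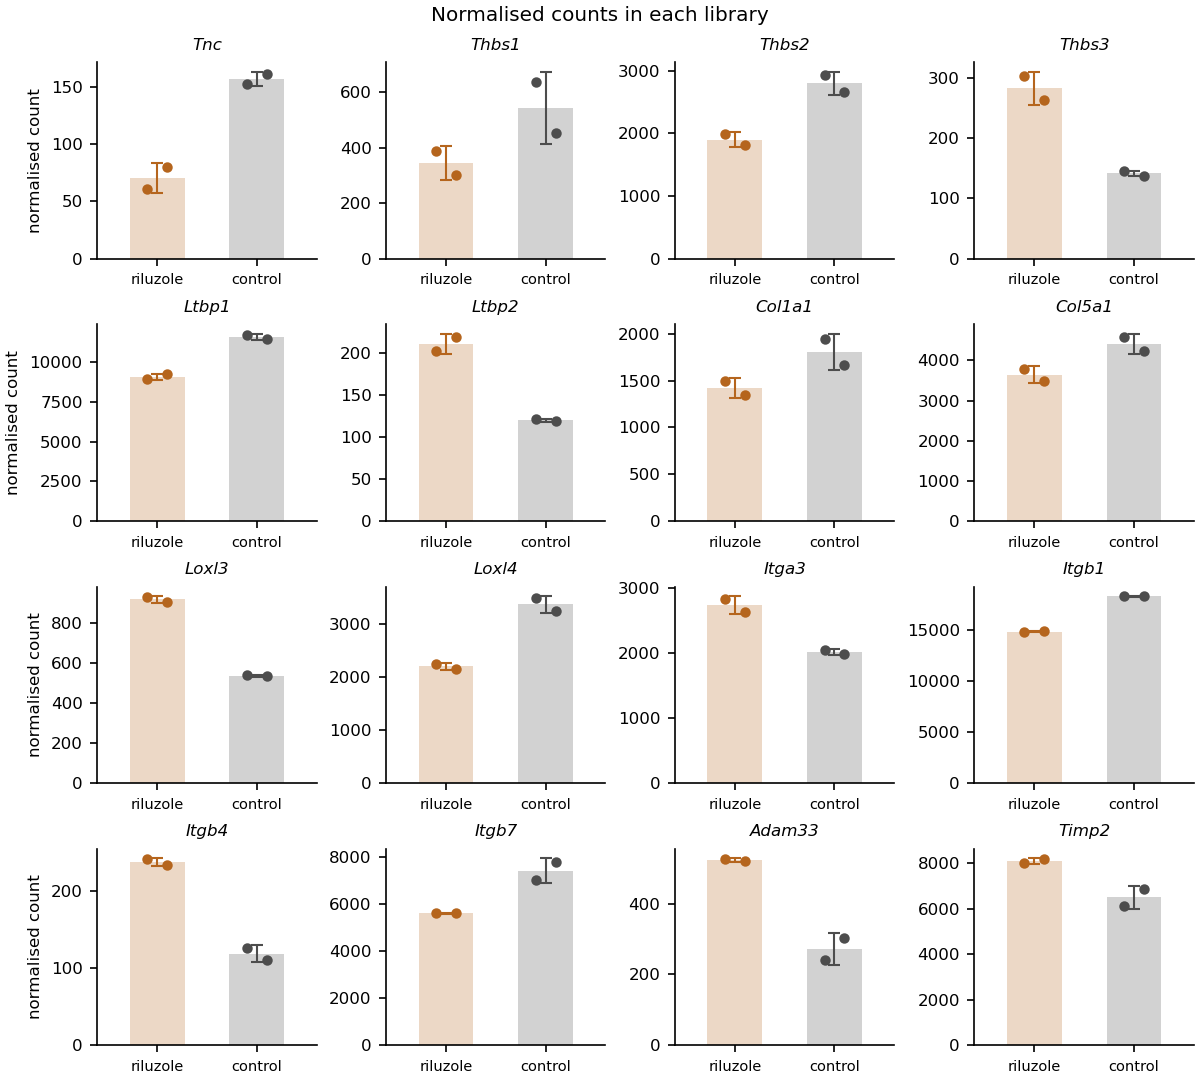
Normalised counts (y axis, from 0) of 16 genes in each riluzole and control library; points are libraries, bars the group mean and whiskers the SD of 2 libraries. Thbs3, Ltbp2, Loxl3, Itga3, Itgb4, Adam33 and Timp2 were higher with riluzole in both libraries and the other 9 lower, with the controls of Thbs1 spread from 452 to 635.

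Listed integrin alpha subunits rose and most listed beta subunits fell, though Itgb5 not with TMM or DESeq2 factors. All 3 listed alpha subunits rose and, of 4 beta subunits, 1 rose and 3 fell. Itgb1 (chromosome 8, 129412135 to 129459681, mm39), the shared partner of many alpha subunits and the main collagen, laminin and fibronectin receptor chain, had 14798 and 14852 normalised counts with riluzole and 18304 and 18258 in the controls. That is a fall to 0.811 of the control level (log2 fold change -0.30 ± 0.04; edgeR adjusted p = 4.81e-07), and libraries of 1 group were nearly equal. Itgb7, better known as a leukocyte subunit that pairs with alpha 4 and alpha E, was abundant in these carcinoma cells at 115 FPKM with riluzole and 154 FPKM in the controls. It had 5601 and 5592 normalised counts with riluzole and 7028 and 7791 in the controls (-0.41 ± 0.04; edgeR adjusted p = 1.36e-08). Itgb5, a vitronectin receptor chain, had 2992 and 2981 with riluzole and 3419 and 3200 in the controls (-0.15 ± 0.05; edgeR adjusted p = 0.00952).

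The listed alpha subunits, which pair with Itgb1, rose while it fell. Itga3, a laminin receptor chain, had 2830 and 2628 normalised counts with riluzole and 2040 and 1983 in the controls, a 1.36-fold rise (log2 fold change 0.44 ± 0.05; edgeR adjusted p = 1.61e-08). Itga6, a laminin receptor chain that pairs with Itgb1 or Itgb4, had 8018 and 7772 with riluzole and 6544 and 6696 in the controls (0.25 ± 0.04; edgeR adjusted p = 6.8e-06). Itga5, the fibronectin receptor chain, had 2531 and 2562 with riluzole and 2292 and 2173 in the controls (0.19 ± 0.05; edgeR adjusted p = 0.0015). In FPKM, Itga3 stood at 0.137 and 0.126 of Itgb1 in the riluzole libraries, against 0.0797 and 0.0776 in the controls. The same ratio for Itga6 was 0.242 and 0.234 with riluzole and 0.160 and 0.164 in the controls. These ratios do not depend on how libraries are scaled. Their rise follows from setting a gene called higher over one called lower, and adds no separate evidence.

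Itgb4 (chromosome 11, 115865535 to 115899238, mm39), whose product pairs with alpha 6 in hemidesmosomes, had 241 and 234 normalised counts with riluzole and 126 and 111 in the controls, a 2.00-fold rise (log2 fold change 1.01 ± 0.14; edgeR adjusted p = 8.96e-07). It remained scarce at 1.92 FPKM with riluzole and 0.976 FPKM in the controls, and its FPKM was 0.0392 and 0.0392 of that of Itga6 in the riluzole libraries and 0.0251 and 0.0216 in the controls. Itgbl1, which carries integrin-like EGF repeats but is a secreted protein and no receptor subunit, had 664 and 698 normalised counts with riluzole and 570 and 573 in the controls (0.25 ± 0.08). The authors' deposited table gives Itgb5 and Itgbl1 an adjusted p of 0.0749 and 0.125. Itgb5 was also not called with TMM or DESeq2 factors (log2 fold change -0.05 and 0.019), or in edgeR when control replicate 1, riluzole replicate 1 or riluzole replicate 2 was left out (adjusted p = 0.201, 0.0526 and 0.0576). Itgbl1 was not called in edgeR without riluzole replicate 2 (adjusted p = 0.102). Itga6 and Itgb5 share stretches of over 200 bases with other annotated transcripts, and Itgb4 overlaps a non-coding gene on the other strand.

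**Figure D3:**
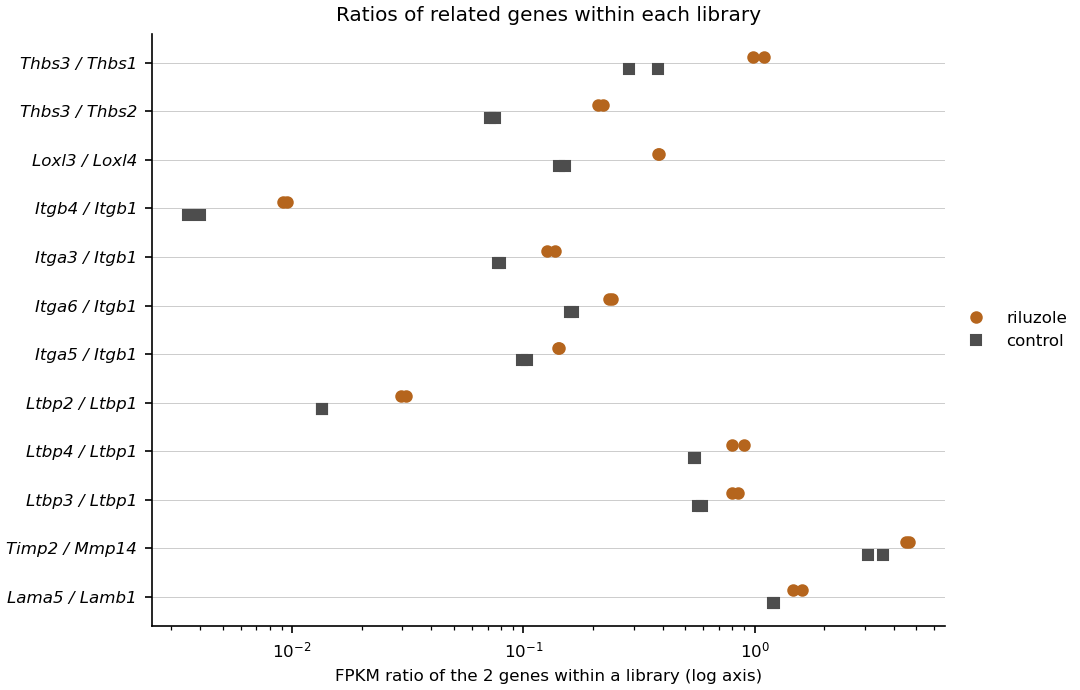
FPKM of the first-named gene divided by that of the second within each library (x axis, log scale); circles are riluzole and squares control libraries, and the pairs were chosen after their values were seen. Each pair sets a gene called higher over one called lower, so that both riluzole libraries lie above both controls in each of the 12 pairs follows from the choice. The ratio between group means was widest for Thbs3 over Thbs1 (3.10-fold) and narrowest for Lama5 over Lamb1 (1.26-fold).

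Most listed ADAMTS and ADAMTS-like genes rose and both listed matrix metalloproteinases fell, though Mmp14 not with TMM or DESeq2 factors. Of 83 annotated genes of metalloproteinases and their inhibitors 13 were listed, and 9 rose and 4 fell. Of the 7 with ADAMTS symbols, the ADAMTS-like Adamtsl genes included, 6 rose and 1 fell. Over all listed genes 41.3% were called higher and 58.2% lower, and with DESeq2 factors 63.1% of calls were higher. Adam33, a membrane-anchored metalloprotease known from asthma genetics, had 528 and 520 normalised counts with riluzole and 240 and 304 in the controls, a 1.92-fold rise (log2 fold change 0.93 ± 0.10; edgeR adjusted p = 2.3e-08). Adamts10, a protease linked to fibrillin microfibrils, had 506 and 506 with riluzole and 307 and 335 in the controls (0.65 ± 0.09; edgeR adjusted p = 2.02e-06). Adamts14, which trims the amino-terminal propeptide of procollagen, had 511 and 477 with riluzole and 387 and 328 in the controls (0.48 ± 0.10; edgeR adjusted p = 0.000225). The riluzole libraries were closer together than the controls for each of these 3. Adamtsl4, which lacks a protease domain and binds fibrillin, had 255 and 229 with riluzole and 160 and 112 in the controls (0.86 ± 0.15; edgeR adjusted p = 2.79e-05). Adamts1, which cuts versican, Adamts6, Adamtsl5 and Adam15 rose by 0.35, 0.40, 0.31 and 0.27 on the log2 scale. Adamtsl3, another protein without a protease domain, had 823 and 755 with riluzole and 1018 and 1044 in the controls (-0.39 ± 0.07; edgeR adjusted p = 2.5e-05).

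Adam9, a sheddase of cell-surface growth factors, had 4061 and 4018 normalised counts with riluzole and 4948 and 4792 in the controls (log2 fold change -0.27 ± 0.04; edgeR adjusted p = 4.53e-06). Mmp19, a secreted metalloproteinase that degrades basement membrane components, had 472 and 465 with riluzole and 696 and 641 in the controls (-0.51 ± 0.08; edgeR adjusted p = 1.01e-05). Timp2, which inhibits metalloproteinases and, with Mmp14, takes part in activating pro-MMP2, was the most abundant gene of this role at 118 FPKM with riluzole and 96.1 FPKM in the controls. It had 8000 and 8181 normalised counts with riluzole and 6121 and 6848 in the controls (0.32 ± 0.05; edgeR adjusted p = 1.3e-06). Mmp14, the membrane-anchored collagenase, had 2704 and 2701 with riluzole and 3025 and 2927 in the controls (-0.14 ± 0.04; edgeR adjusted p = 0.0135). The FPKM of Timp2 was 4.53 and 4.63 times that of Mmp14 in the riluzole libraries and 3.10 and 3.58 times in the controls. Mmp14 has an adjusted p of 0.101 in the authors' deposited table, and in edgeR one of 0.12, 0.0655 and 0.0637 when control replicate 1, riluzole replicate 1 or riluzole replicate 2 was left out. It was not called with TMM or DESeq2 factors either (log2 fold change -0.04 and 0.028). Adam9 was not called with DESeq2 factors (-0.10), and Mmp19 and Adam15 overlap exons of genes on the other strand, Tmem198b in the case of Mmp19.

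Serpins other than Serpinh1 were mostly scarce and went both ways. Of the 7 listed, Serpinh1 included, 3 rose, 3 fell and Serpinb6a was not called. Serpinb8 (chromosome 1, 107517736 to 107538214, mm39), whose human counterpart inhibits furin, had 48.4 and 56.4 normalised counts with riluzole and 12.1 and 19.3 in the controls, a 3.34-fold rise and the largest of the 51 genes (log2 fold change 1.69 ± 0.33; edgeR adjusted p = 0.00013). It stood at 0.621 FPKM with riluzole and 0.189 FPKM in the controls, from 50 and 51 raw counts against 11 and 23. Serpinb7 lies on the same chromosome at 107327385 to 107380419, and had 62.0 and 66.4 normalised counts with riluzole and 96.6 and 127 in the controls (-0.82 ± 0.20; edgeR adjusted p = 0.00134). The 2 genes lie near each other and went opposite ways. Serpinb9b, of the granzyme-inhibitor group of mouse serpins, had 477 and 455 with riluzole and 351 and 365 in the controls (0.38 ± 0.09; edgeR adjusted p = 0.00163).

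Serpinf1, the pigment epithelium-derived factor, an angiogenesis inhibitor that inhibits no protease, had 133 and 163 normalised counts with riluzole and 227 and 199 in the controls (log2 fold change -0.53 ± 0.14; edgeR adjusted p = 0.00338). Serpinb6b had 45.5 and 56.4 with riluzole and 23.0 and 27.7 in the controls, a 2.01-fold rise (edgeR adjusted p = 0.00834). The abundant Serpinb6a stood at 92.4 FPKM with riluzole and 100.3 FPKM in the controls. It had 8575 and 9044 normalised counts with riluzole and 9194 and 9591 in the controls, and its edgeR adjusted p was 0.0968. The nearest libraries of its 2 groups lay closer together than the libraries within either group, and it overlaps exons of Ripk1 and Nqo2 on the other strand, as Serpinb9b does those of a non-coding gene. In the authors' deposited table Serpinb6b, Serpinb7 and Serpinf1 have an adjusted p of 0.135, 0.0588 and 0.0825, and none was called in edgeR without riluzole replicate 2, control replicate 2 and riluzole replicate 1, in that order of genes (0.0939, 0.0761 and 0.128). With DESeq2 factors Serpinf1 was not called either (log2 fold change -0.36, edgeR adjusted p = 0.0704). Serpinb6a passed with a replicate block (adjusted p = 0.0171) and with library totals implied by FPKM (0.0259).

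Levels per length showed how unevenly the set was expressed. The mean FPKM ran from 0.109 for Col10a1 to 272 for Serpinh1, with a median of 12.9 over the 51 genes and 13.8 over all listed genes. Summed over the 51 genes, FPKM came to 1656 and 1643 in the riluzole libraries and 1819 and 1810 in the controls. Integrins made up 29.4% and 29.4% of that sum with riluzole and 30.7% and 31.5% in the controls, and serpins 20.9% and 21.6% against 22.7% and 23.2%. The share of metalloproteinases and inhibitors was 16.4% and 16.6% with riluzole and 13.9% and 14.4% in the controls. Their FPKM summed to 271.6 and 272.1 with riluzole and 253.1 and 260.8 in the controls. Of that the inhibitor Timp2 gave 116.6 and 119.1 with riluzole and 90.6 and 101.7 in the controls. Timp2 thus rose by more than the whole role did, and the proteases together did not rise.

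**Figure D4:**
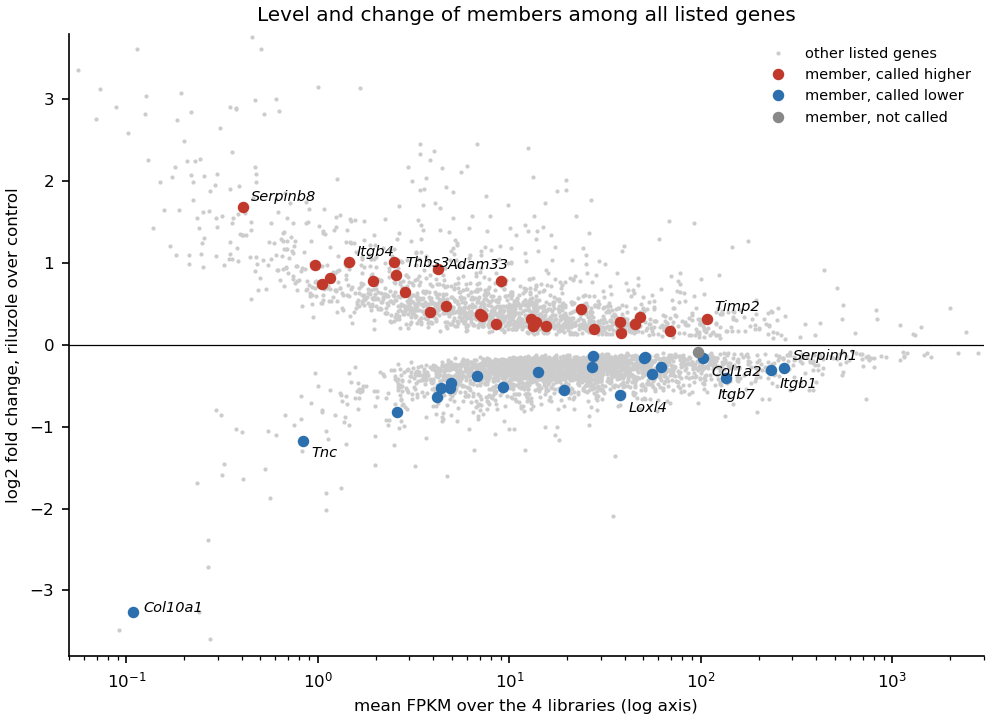
Mean FPKM over the 4 libraries (x axis, log scale) and log2 fold change of riluzole over control (y axis) for the 51 genes (coloured) among all listed genes (grey); 39 listed genes lie outside the axes. The gap along 0 is the authors' listing at p below 0.05, and the 3 most abundant members, Serpinh1, Itgb1 and Itgb7, lie below 0 while the largest rises are scarce genes such as Serpinb8.

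Among other listed genes of matrix biology, which the symbols did not capture, more rose than fell. Of 100 such genes in 6 groups 31 were listed, and 19 rose, 11 fell and Actn4 was not called (edgeR adjusted p = 0.106, and 0.0214 with a replicate block). With TMM and with DESeq2 factors the falls numbered 6 and 3 and the rises 20 in both, so that higher calls were 76.9% and 87.0% of all in place of 63.3%. Over all listed genes the share moved likewise, to 51.8% with TMM and 63.1% with DESeq2 factors in place of 41.5%. Of 28 matrix proteins and proteoglycans 8 were listed, 7 higher and 1 lower. Spp1, osteopontin, a secreted integrin ligand, had 66307 ± 1995 normalised counts with riluzole and 48427 ± 4158 in the controls (SD, n = 2 each). Agrn, the basement membrane proteoglycan agrin, had 1943 ± 84.5 with riluzole and 1276 ± 5.09 in the controls, and Sdc1, the cell-surface proteoglycan syndecan-1, had 706 ± 45.2 and 418 ± 7.93. These 3 rose by 0.45, 0.61 and 0.75 on the log2 scale, Ecm1 by 0.57, Efemp2 by 0.29 and Sdc2 by 0.22. Tgfbi, a TGF-beta-induced adhesion protein, was scarce at 25.0 ± 5.68 normalised counts with riluzole and 5.01 ± 2.43 in the controls. Gpc1, the proteoglycan glypican-1, fell by 0.20.

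Genes of collagen processing and of TGF-beta went both ways. Of 11 collagen-processing genes 3 were listed: Pcolce, the enhancer of procollagen C-proteinase, and Bmp1, that proteinase, rose by 0.38 and 0.39 on the log2 scale, and Mia3, which loads procollagen into transport vesicles, fell by 0.28. Of 13 genes of the TGF-beta axis 6 were listed. The ligands Tgfb1 and Tgfb3 rose by 0.43 and 0.74, the co-receptor Tgfbr3 by 0.42 and the signal transducer Smad3 by 0.48, while the inhibitors Smad7 and Ski fell by 0.27 and 0.16. Of 18 proteases and their regulators 5 were listed. Plat, tissue plasminogen activator, had 359 ± 42.6 normalised counts with riluzole and 192 ± 13.7 in the controls, and Plaur, the urokinase receptor, had 4833 ± 254 and 6229 ± 107 (log2 fold change 0.90 and -0.37). Cathepsin B (Ctsb) and the heparanase Hpse each rose by 0.25, and the proprotein convertase Furin fell by 0.14.

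Of 22 matrix receptors and adhesion adaptors 9 were listed, 3 higher and 5 lower. Cd44, the hyaluronan receptor, had 11361 ± 105 normalised counts with riluzole and 9054 ± 277 in the controls, and Cav1 and Parva, a caveolar coat protein and an adaptor of integrin-linked kinase, rose by 0.21 and 0.30 on the log2 scale. Lims1, which binds the same kinase, fell by 0.38, the collagen receptor Ddr2 by 0.29, the actin cross-linker Flna by 0.25, the adaptor Bcar1 by 0.22, and Tln1, the talin that links integrin tails to actin, by 0.16. Of the 11 falls among these other matrix genes, those of Lims1, Ddr2 and Plaur were still called with DESeq2 factors. Bcar1, Flna, Gpc1, Mia3 and Smad7 kept their sign but not their call, and Ski, Tln1 and Furin turned positive (log2 fold change 0.0051, 0.0047 and 0.022). With TMM the calls of Bcar1, Gpc1, Ski, Tln1 and Furin were lost. Ski, Furin and Tgfbi have an adjusted p of 0.104, 0.118 and 1 in the authors' deposited table. In edgeR, leaving out 1 library ended the calls of Ski, Tln1, Furin and Hpse at least once, with adjusted p up to 0.0965, 0.212, 0.151 and 0.0542 in that order. None of the 8 genes of hyaluronan synthesis and turnover was listed.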

How the data were processed

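Messenger RNA of CT26 cells was measured in 2 riluzole and 2 control libraries, grouped by the labels. Build mm39 and the tools featureCounts 1.5.0-p3, HISAT2, edgeR and DESeq2 appear in the submitters' processing notes, and the sources used here give no settings, strandedness or annotation release. The authors deposited 2 tables with raw read counts per gene, per the file headers. The deposited normalised values are a signal that equals the raw count over a size factor, 1 for each library. FPKM values were computed by the authors from counts, gene length and a library total, per the file headers. Per the file headers, the authors also gave each gene a p-value, an adjusted p and a log2 fold change, from a tool not named there. Their adjusted p follows from their p with 12601 genes adjusted for (within a relative 0.001 for 4218 of 4218 genes), and 77 listed genes of low count carry an adjusted p of 1.

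Counts were tested in R 4.3.3 with edgeR 4.0.16 (quasi-likelihood F test, riluzole against control, no covariate, no filter), with effective library sizes taken from the authors' size factors. Benjamini-Hochberg adjustment was over 12601 genes. Unlisted genes had no counts to test, and calls among listed genes in that adjustment came to 33.3% of it. The SE is the log2 fold change divided by the square root of F. Both SE and p rest on a spread estimated from listed genes alone, which were chosen by p and may vary less than others. The test was checked on simulated counts with the same dispersion for every gene and no selection by p. That check cannot show whether the spread estimated here is too small. DESeq2 1.42.0, other scalings, filters, a replicate block and leaving out each library were alternatives. Shared sequence was looked for in GENCODE M21 (at least 95% identity over 200 bases, BLAST+ 2.17.0, or 50 overlapping exonic bases), by gene identifier, since its build is GRCm38. The members and lists were chosen with earlier results of these data known. Every gene of the set is named except 1, which is counted with the set and not otherwise reported here; values in each library are given at least for up to 5 called genes per role with the largest change and at least 100 normalised counts on average, the gene of highest FPKM, and up to 2 that ran against their role. Ratios of 2 genes were chosen after their values were seen.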

Additional observations from a re-analysis of the deposited data

How the results depend on the processing

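Of 12 alternatives, all were run for each gene except filters on low counts that removed Col10a1, Serpinb6b, Serpinb7 or Serpinb8. The call and sign stayed the same in each one run for 35 of the 51 genes and changed at least once for 16. TMM and DESeq2 factors over the listed genes raised all log2 fold changes by 0.10 and 0.17. Both centre the listed genes, of which the larger number fell, at 0, so the shift follows from their construction. With DESeq2 factors the log2 fold change turned positive for Col1a2 (0.0082), Itgb5 (0.019), Lamb1 (0.0018), Mmp14 (0.028) and Serpinb6a (0.072), and with TMM for Serpinb6a (0.0051). The median over the set, 0.19, became 0.36 with DESeq2 factors, 0.29 with TMM, 0.17 with FPKM-implied totals and 0.21 among genes averaging at least 10 normalised counts. Lower calls fell to 1042 with DESeq2 factors and 1656 with TMM over all listed genes, against 2501, and to 3 and 6, against 11, among the other matrix genes. Leaving out each library in turn gave 25 to 28 genes of the set higher, 18 to 20 lower and a median of 0.14 to 0.20. The DESeq2 Wald test lost 6 of the set's calls. With a replicate block the set had 28 higher and 23 lower, and Serpinb6a was the gene gained. Same-numbered libraries deviated with a correlation of 0.08 over 3998 genes, the labels do not say that numbers mark a shared culture, and the block changed no other call in the set. With 2 libraries per group the spread of each gene is borrowed from the others, all of them listed at p below 0.05. That spread, and with it the SE and edgeR adjusted p, may therefore be too small. Of 4295 listed genes edgeR called 4273, against 3132 in the authors' deposited table at an adjusted p below 0.05. For scarce genes such as Col10a1 and Serpinb6b depth limits what can be called.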
